A study of Rattus norvegicus with 18 samples.

Results

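The miR-146 and miR-21 entries were examined in small RNA libraries from rat gastrocnemius muscle. They were chosen by name: every entry that reads miR-146a, miR-146b or miR-21 after the rat prefix, on either arm of the hairpin. This took 6 of the 909 entries in the count table: rno-miR-146a-5p, rno-miR-146a-3p, rno-miR-146b-5p, rno-miR-146b-3p, rno-miR-21-5p and rno-miR-21-3p. All 6 passed the filter on low counts in each comparison. The animals were male Brown Norway rats. Young AL rats were 6 months old and fed ad libitum, meaning without restriction (n = 6, replicates 1 to 6). Old AL rats were 28 months old on the same feeding (n = 6, replicates 7 to 12). Old CR rats, also 28 months old, were calorie-restricted and received 55% of the ad libitum intake (n = 6, replicates 13 to 18). Whole muscle was used, so fewer cells of a type and less RNA per cell cannot be told apart. The young AL library set served as control in both comparisons with old rats, and the old AL set entered both the ageing and the diet comparison.

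MicroRNAs are short RNAs that bind messenger RNAs through bases 2 to 8, called the seed, and lower their output. miR-146a and miR-146b are known as brakes on inflammatory signalling: NF-kB induces miR-146a, and both repress the adaptors Irak1 and Traf6, which carry signals from Toll-like and interleukin-1 receptors. miR-21 is abundant in many cell types, among them leukocytes and activated fibroblasts, and represses Pdcd4, a regulator of cell death.

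The mature sequences are shown because the 5p strands of miR-146a and miR-146b differ so little that the sequence decides how far their counts can be separated. RefSeq (build GRCr8) held all 6 of 6 members. The seed is in capitals.
rno-miR-146a-5p: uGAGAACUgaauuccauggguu
rno-miR-146b-5p: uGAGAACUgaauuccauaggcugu
rno-miR-146a-3p: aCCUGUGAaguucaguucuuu
rno-miR-146b-3p: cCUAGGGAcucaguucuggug
rno-miR-21-5p: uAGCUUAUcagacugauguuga
rno-miR-21-3p: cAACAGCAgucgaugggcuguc

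Both miR-146 5p strands carry the seed GAGAACU, and no other entry of the table with a sequence in RefSeq shares a seed with any member. Over the 22 positions compared, counted from 1 at the 5′ end, 20 were identical between miR-146a-5p and miR-146b-5p, and the substitutions were G18A and U21C (miR-146a base first). Reads that ended before position 18 would fit either strand. The sources used here do not say how such reads were assigned. The split of counts between these strands is uncertain to that extent. The 3p strands do not share a seed.

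In GRCr8, mature miR-146a-5p lies at chr10:28350053-28350074 on the minus strand, and Mir146a overlaps a lncRNA gene, LOC134480673, and has Pttg1 as a neighbour. Mature miR-146b-5p lies at chr1:255144874-255144897 on the plus strand, within the protein-coding gene C1h10orf95 and between Cuedc2 and Mfsd13a. Mature miR-21-5p lies at chr10:71902653-71902674 on the minus strand. Mir21 overlapped no annotated gene there and sits between Tubd1 and Vmp1, the gene whose locus is known to host it.

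The 18 libraries held 34940346 to 83110905 counts, and the muscle identity of the tissue was plain in them: miR-1-3p averaged 94843 CPM (counts per 1000000, scaled by TMM factors over all libraries), miR-133a-3p 16786 CPM and miR-206-3p 7808 CPM. Among the skeletal muscle entries miR-208a-5p was listed at 0. In old AL replicate 8 the miR-142 entries, which mark cells of the blood lineage, summed to 208.5 CPM against 10.0 to 16.4 CPM in the other 5 old AL libraries, and miR-155-5p, an activated leukocyte miRNA, was 11.4 times the median of those 5. In old CR replicate 18 the miR-142 sum was 73.8 CPM against 4.41 to 14.8 CPM in the other 5. Its miR-155-5p level was 32.5 CPM against 5.46 to 12.4 CPM in those 5, or 3.28 times their median. Other leukocyte entries stood out less. In replicate 8 miR-150-5p was 2.81 times and miR-223-3p 1.24 times the median of the other 5 old AL libraries. In replicate 18 these entries were 1.21 and 1.22 times the median of the other 5 and within their range. Over all 8 entries of the leukocyte list the sum was 125 to 172 CPM in young AL rats. It was 111 to 166 CPM in old AL rats apart from 609 CPM in replicate 8, and 109 to 185 CPM in old CR rats apart from 241 CPM in replicate 18. These libraries also differed from their groups in other markers. The erythroid sum was the highest of its group in both, at 1.56 times the median of the other 5 in replicate 8 and 1.88 times in replicate 18. The skeletal muscle sum was 0.600 and 0.572 times that median, and the vascular sum of replicate 8 was 1.51 times. A low muscle sum was not particular to replicate 8, since old AL replicate 7 was lower (70820 against 74441 CPM). In replicate 18 it was the lowest of its group at 94719 CPM, with replicate 15 next at 105226 CPM. The fold changes and ratios of the members and the counts of the marker lists were therefore also computed without these libraries.

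Members with a high level were the 5p strands. miR-21-5p ranked 33 of the 763 known miRNAs by mean level (1219 CPM), miR-146a-5p ranked 59 (255 CPM) and miR-146b-5p ranked 95 (71.1 CPM). The 3p strands, which are usually discarded after the hairpin is cut, were scarce: miR-146b-3p averaged 0.990 CPM (rank 322), miR-146a-3p 0.238 CPM (rank 423) and miR-21-3p 0.0651 CPM (rank 516). miR-21-3p rested on 0 to 9 counts a library. Its single library without a count, old CR replicate 14, allows up to 0.0557 CPM (3 counts), counting error only.

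miR-146a-5p, the NF-kB-induced member, was highest in old AL muscle. Its level was 160.5 CPM at the lowest, 193 CPM at the median and 263 CPM at the highest in young AL rats. In old AL rats the corresponding levels were 257, 286 and 550 CPM. In old CR rats they were 179, 229 and 345 CPM. Of the 6 old AL libraries 5 exceeded every young AL library, and the sixth, replicate 7, lay just under young AL replicate 2. Replicate 7 had the largest TMM factor of all libraries, 2.14, and 26882 miR-146a-5p counts in a total of 48964459. Its level therefore depends strongly on the scaling. The old CR values overlapped both other groups. The highest old AL and old CR values belonged to replicates 8 and 18, the libraries rich in miR-142.

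The mean level of miR-146a-5p was 196 ± 36.4 (young AL), 328 ± 110 (old AL) and 241 ± 60.7 CPM (old CR) (SD, n = 6 each). Between old AL and young AL rats the edgeR log2 fold change was 0.74 (SE 0.194, 95% interval 0.30 to 1.17), with an adjusted p of 0.0652, which missed the threshold of 0.05. DESeq2 gave 0.75 (SE 0.205) with an adjusted p of 0.00435, and called it. An exact permutation test of the log2 levels gave a difference of 0.71 and an unadjusted two-sided p of 0.00433, where 0.00216 is the smallest that 6 against 6 allows. edgeR itself called it where a stricter filter on low counts, a fit over the 3 groups together or known miRNAs alone was used (adjusted p = 0.0368, 0.0432 and 0.0243), and did not with other scalings. The increase was thus called by some tests and not by others.

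Leaving out replicate 8 narrowed the old AL group to 283 ± 20.0 CPM (SD, n = 5) and lowered the edgeR log2 fold change to 0.55 (SE 0.141, adjusted p = 0.0568). Its interval was smaller and so was its effect. DESeq2 without replicate 8 gave 0.53 (SE 0.124) with an adjusted p of 3.3e-04, but this fold is under the 1.5 required for a call, so the call was lost on size and not on error. The miR-142 sum of replicate 8 was 16.5 times the median of the other 5 old AL libraries, while its miR-146a-5p level was 1.94 times that median. The part of leukocyte RNA in the difference was not tested.

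miR-146b-5p, which has the same seed, varied less. Its level ran from 52.2 to 86.1 CPM in young AL rats (median 63.8). The range was 64.7 to 94.99 CPM in old AL rats (median 78.6) and 50.9 to 86.8 CPM in old CR rats (median 60.7). All 3 groups overlapped, and replicate 8 (91.6 CPM) was second within old AL. The group means were 66.9 ± 13.6, 80.3 ± 11.5 and 66.2 ± 15.7 CPM (SD, n = 6 each). The edgeR log2 fold change between old AL and young AL was 0.27 (SE 0.143, adjusted p = 0.273), and the interval of −0.05 to 0.58 reached almost to a 1.5-fold increase. With replicate 8 left out it was 0.24 (adjusted p = 0.353).

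Added together, the 5p counts that carry the GAGAACU seed amounted to 263 ± 37.7 (young AL), 408 ± 117 (old AL) and 307 ± 64.6 CPM (old CR) (SD, n = 6 each). This sum does not depend on how reads were split between miR-146a and miR-146b if each read was counted once. Reads counted for both strands or for neither would change it, and the sources used here do not say.

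miR-21-5p was the most abundant member in every library. Its lowest, median and highest levels were 751, 871 and 1409 CPM in young AL rats. In old AL rats they were 847, 1423 and 2530 CPM. In old CR rats they were 565, 1090 and 1577 CPM. The groups overlapped throughout, and 3 of 6 old AL libraries exceeded the highest young AL value. The lowest old AL level was that of replicate 7, the library with the largest TMM factor. Replicates 8 and 18 were again highest within their groups.

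The means of miR-21-5p were 983 ± 270 (young AL), 1546 ± 604 (old AL) and 1127 ± 384 CPM (old CR) (SD, n = 6 each). Its edgeR log2 fold change between old AL and young AL was 0.66 (SE 0.253, 95% interval 0.09 to 1.22, adjusted p = 0.153), and DESeq2 gave an adjusted p of 0.0947. Without replicate 8 the old AL mean was 1349 ± 406 CPM (SD, n = 5). The log2 fold change then fell to 0.48 (SE 0.233, edgeR adjusted p = 0.234). The increase in miR-21-5p with age did not pass the test in either case.

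**Figure D1:**
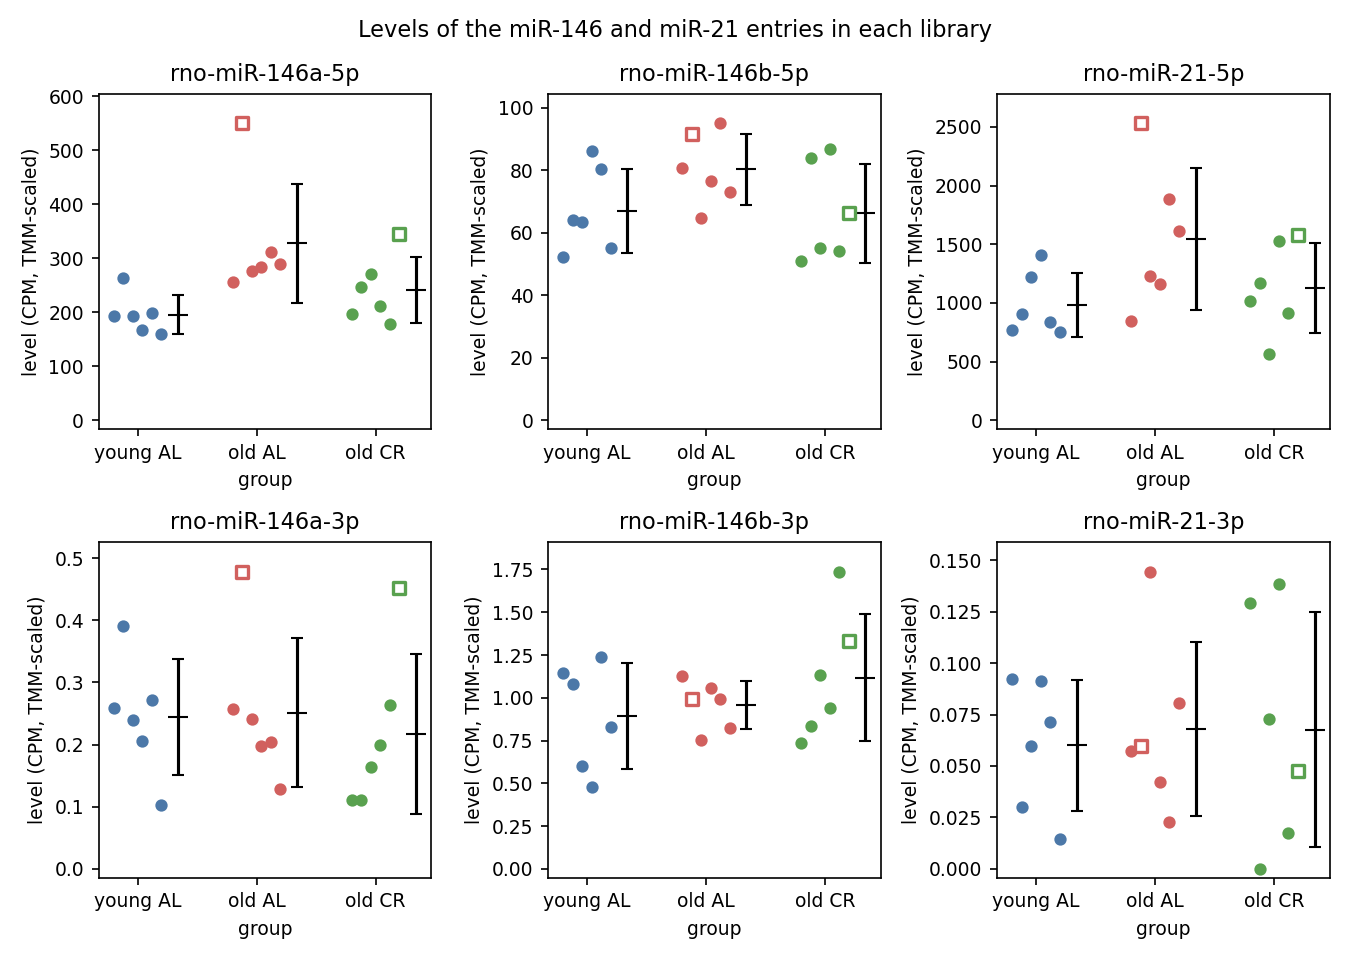
Level of each of the 6 entries (y axis, CPM scaled by TMM factors, starting at or just below 0) in the 18 libraries by group (x axis); each point is a library, open squares are old AL replicate 8 and old CR replicate 18, and black bars are the mean ± SD (n = 6). For miR-146a-5p 5 of 6 old AL points lie above every young AL point, whereas the other entries overlap more.

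For the 3p strands the differences between group means were within the spread between libraries. miR-146a-3p was 0.245 ± 0.0933 (young AL), 0.251 ± 0.120 (old AL) and 0.217 ± 0.129 CPM (old CR) (SD, n = 6 each), from 6 to 40 counts a library. Its highest old AL and old CR values were again those of replicates 8 (0.478 CPM) and 18 (0.452 CPM). miR-146b-3p was 0.895 ± 0.310, 0.957 ± 0.142 and 1.12 ± 0.370 CPM in the same order, and replicate 8 did not stand out. miR-21-3p was 0.0600 ± 0.0320, 0.0678 ± 0.0422 and 0.0676 ± 0.0571 CPM. Between old AL and young AL rats the edgeR log2 fold changes were 0.03 for miR-146a-3p (SE 0.365), 0.08 for miR-146b-3p (SE 0.251) and 0.20 for miR-21-3p (SE 0.563). Their adjusted p-values were 0.972, 0.914 and 0.903 in edgeR, and the interval of miR-21-3p, −1.06 to 1.45, held a 1.5-fold change in either direction.

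Counted over the members, edgeR called 0 of 6 between old AL and young AL rats, where it called 3.28% of all entries tested; a call needed both 1.5-fold or more and an adjusted p no higher than 0.05. DESeq2 called 1 of 6, miR-146a-5p, against 12.2% of all entries. In edgeR 2 of 6 members, miR-146a-5p and miR-21-5p, had an unadjusted p under 0.05, against 23.4% of all entries. The groups were free of overlap for 0 of 6 members and for 3.55% of all entries. The median log2 fold change of the 6 members was 0.23 and that of all entries 0.06.

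Old CR muscle was next set against young AL muscle, which asks what separates aged restricted rats from young ones. miR-146a-5p had an edgeR log2 fold change of 0.30 (SE 0.180, 95% interval −0.10 to 0.70, adjusted p = 0.338). That of miR-21-5p was 0.19 (SE 0.252, interval −0.37 to 0.76, edgeR adjusted p = 0.734). miR-146b-5p stood at −0.02 (SE 0.185, interval −0.43 to 0.39, edgeR adjusted p = 0.977). These differences were all within the spread between libraries. Without old CR replicate 18 the values were 0.17 for miR-146a-5p and 0.08 for miR-21-5p. The 3p strands had log2 fold changes of −0.17 (miR-146a-3p), 0.31 (miR-146b-3p) and 0.18 (miR-21-3p), with intervals that held 0. Neither edgeR nor DESeq2 called any of the 6 members, where the tools called 9.32% and 16.2% of all entries. None had an unadjusted edgeR p under 0.05 (25.5% of all entries) and none was free of overlap (5.75% of all entries).

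The diet comparison, old CR against old AL, pointed downward for the 5p strands without passing the test. The edgeR log2 fold change was −0.44 for miR-146a-5p (SE 0.219, 95% interval −0.93 to 0.05, adjusted p = 0.419), and 4 of 6 old CR libraries lay below all old AL libraries. It was −0.45 for miR-21-5p (SE 0.297, interval −1.11 to 0.21, edgeR adjusted p = 0.557) and −0.27 for miR-146b-5p (SE 0.170, interval −0.65 to 0.11, edgeR adjusted p = 0.528). The intervals left room for no difference and for a reduction beyond 1.5-fold alike.

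Leaving out replicate 8 or 18 changed these values for miR-146a-5p and miR-21-5p, but little for miR-146b-5p. Without replicate 8 they were −0.23 for miR-146a-5p, −0.25 for miR-21-5p and −0.23 for miR-146b-5p. With replicate 18 left out in its place they were −0.56, −0.57 and −0.27 in the same order. With both left out they were −0.35, −0.37 and −0.23. miR-146a-3p and miR-146b-3p had log2 fold changes of −0.20 and 0.23, and miR-21-3p of 0.00. edgeR called 0 of 6 members, against 0.272% of all entries, and DESeq2 0 of 6, against 3.97%, although it gave miR-21-3p no adjusted p. In this comparison 0 of 6 members had an unadjusted edgeR p under 0.05 (12.0% of all entries) and 0 of 6 were free of overlap (0.543% of all entries).

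**Figure D2:**
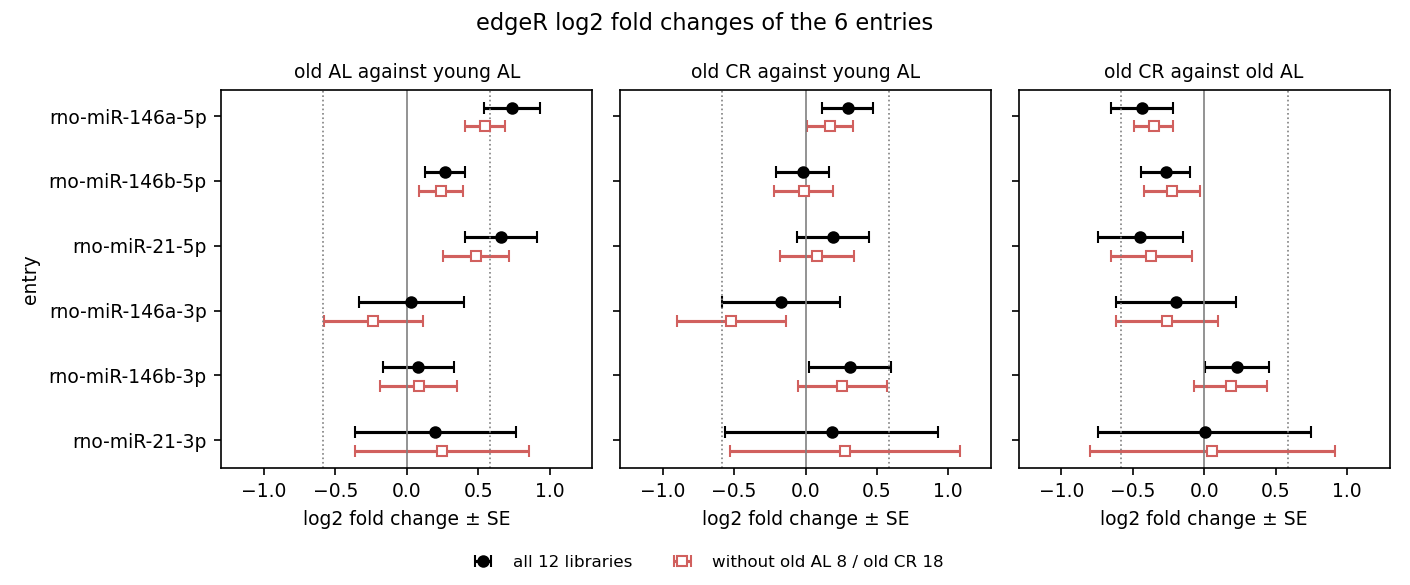
edgeR log2 fold changes (x axis, bars are ± SE) of the 6 entries (y axis) in the 3 comparisons, with all 12 libraries (filled) and with old AL replicate 8, old CR replicate 18 or both left out where they take part (open squares); dotted lines mark a 1.5-fold change. miR-146a-5p between old AL and young AL moves from 0.74, outside the dotted line, to 0.55, inside it, when replicate 8 is left out.

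Within a library the balance between members can be read without any scaling. At the median of the young AL rats there were 2.97 counts of miR-146a-5p for each count of miR-146b-5p. The old AL median was 3.83 and the old CR median 3.58. The mean log2 ratio was 1.56 ± 0.39 (young AL), 1.99 ± 0.33 (old AL) and 1.86 ± 0.43 (old CR) (SD, n = 6 each). The difference between old AL and young AL, 0.43, had an exact permutation p of 0.0584 (two-sided), and 0.976 after adjustment over the 18 ratio tests. With replicate 8 left out the difference was 0.32 (exact permutation p = 0.128). The ratio of miR-21-5p to miR-146a-5p had mean log2 values of 2.30 ± 0.48, 2.20 ± 0.31 and 2.18 ± 0.60 in the same order (SD, n = 6 each). Its differences were at most 0.12 in size, and their exact permutation p-values were 0.656 to 0.9502.

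The miR-21 strands were far apart in abundance: at the median there were 15015 counts of the 5p strand for each 3p count (young AL), 20940 (old AL) and 19963 (old CR). Since the 3p counts were 0 to 9, with 0.5 counts added before the ratio was taken, these ratios are coarse. Their 3 differences between groups had exact permutation p-values of 0.394 to 0.905.

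**Figure D3:**
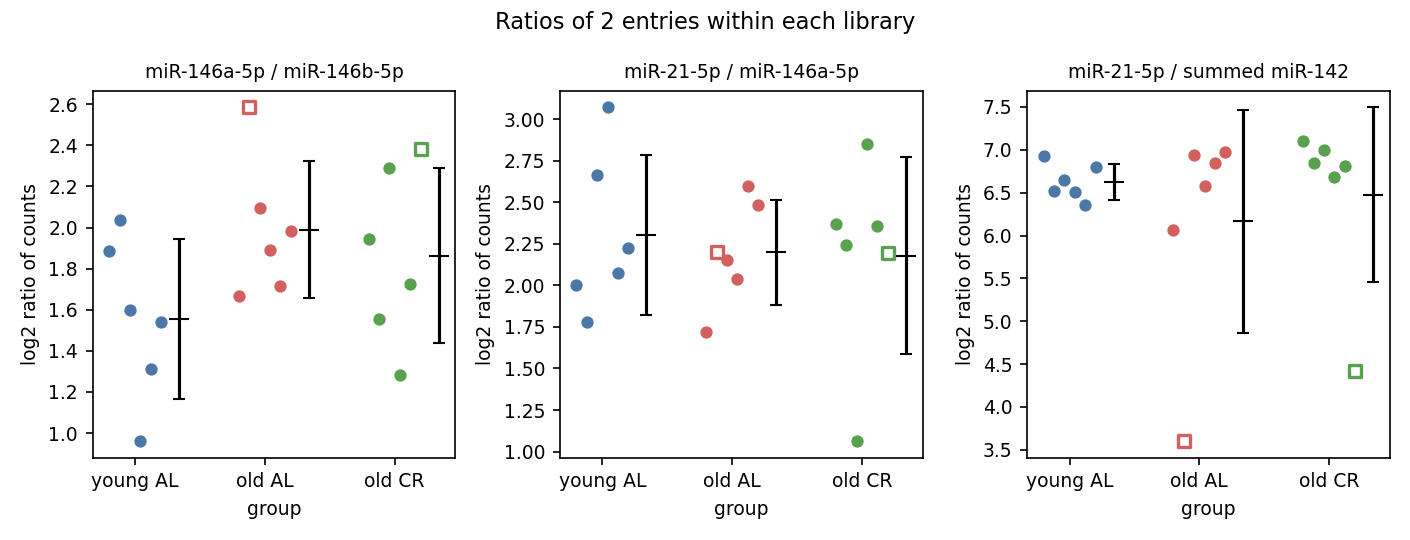
log2 ratio of 2 entries within a library (y axis, not starting at 0) by group (x axis); each point is a library, open squares are old AL replicate 8 and old CR replicate 18, and black bars are the mean ± SD (n = 6). The ratio of miR-21-5p to the miR-142 sum lies between 6.07 and 7.10 in all libraries but those, where it is 3.601 and 4.42. Those libraries were singled out for their high miR-142 sums, so their low ratios to miR-142 follow from that choice.

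Replicates 8 and 18 were set apart by their high miR-142 sums, so a low ratio to miR-142 in them follows from that choice. The miR-21-5p count was 82.2 to 122 times the miR-142 sum in young AL rats. The median was 105 times in old AL and 114 times in old CR rats, but in replicates 8 and 18 it was 12.1 and 21.4 times. For miR-146a-5p the median was 21.7, 21.4 and 23.2 times in young AL, old AL and old CR rats, with 2.64 times in replicate 8 and 4.67 times in replicate 18. miR-146b-5p was 0.440 and 0.898 times the miR-142 sum in these libraries, against a median of 7.19 times in young AL rats. Replicate 8 held 2.06 times the median miR-21-5p level of the other old AL libraries and 1.199 times their miR-146b-5p level. None of the 9 differences between groups in these ratios passed the exact permutation test (adjusted p = 0.976 for each).

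Over the other 16 libraries the miR-142 sum ranged from 4.41 to 16.4 CPM and the 5p strands followed it unequally. Pearson's r of the log2 levels was 0.86 for miR-21-5p (Spearman's rho 0.80), 0.84 for miR-146b-5p (rho 0.86) and 0.22 for miR-146a-5p (rho 0.31). Within the groups, each of 6 libraries and with replicates 8 and 18 included, r between miR-21-5p and miR-142 was 0.92 (young AL), 0.75 (old AL) and 0.81 (old CR). For miR-146a-5p it was 0.02, 0.98 and 0.62. The summed leukocyte list, most of which is miR-150-5p, gave the opposite sign over the 16 libraries, with r of −0.74 for miR-21-5p and −0.33 for miR-146b-5p. So the leukocyte markers did not move as one with the members. These are descriptions across libraries that share a table and its scaling, without a p.

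**Figure D4:**
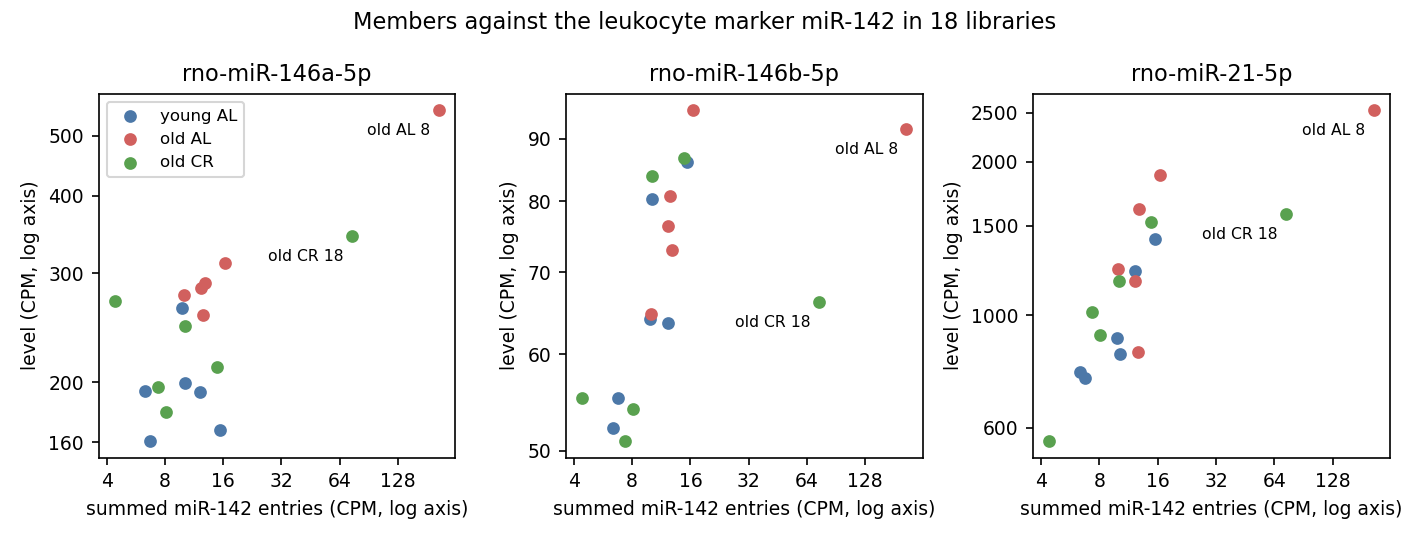
Level of miR-146a-5p, miR-146b-5p and miR-21-5p (y axis, CPM, log scale) against the summed miR-142 entries (x axis, CPM, log scale) in 18 libraries coloured by group. Old AL replicate 8 (208.5 CPM of miR-142) and old CR replicate 18 (73.8 CPM) lie far to the right, and over the other 16 libraries r is 0.22, 0.84 and 0.86.

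The members also followed each other loosely. Over the 16 libraries r was 0.65 between miR-146b-5p and miR-21-5p, 0.37 between the miR-146 5p strands and 0.28 between miR-146a-5p and miR-21-5p. With replicates 8 and 18 included the last value was 0.59. Of 348 entries averaging at least 1 CPM, those most like miR-21-5p over 18 libraries were miR-3559-5p (r = 0.87), miR-148b-3p (r = 0.84), miR-19b-3p (r = 0.80), a predicted candidate miRNA (r = 0.80) and miR-142-5p (r = 0.80). miR-3559-5p was also the entry most like miR-146b-5p (r = 0.84), followed by miR-653-5p (r = 0.72), miR-223-3p (r = 0.69), miR-143-3p (r = 0.67) and miR-199a-5p (r = 0.63). For miR-146a-5p the closest were that predicted candidate (r = 0.83), miR-142-5p (r = 0.82), miR-425-3p (r = 0.75), miR-342-3p (r = 0.74) and another predicted candidate (r = 0.69). Without replicates 8 and 18 these fell to 0.57, 0.55, 0.58, 0.08 and −0.22, so the likeness to the last pair rested on those libraries.

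Other miRNAs linked to inflammatory signalling were taken as a list of 35 entries, among them miR-155, miR-132, miR-212, miR-9a, miR-34a and miR-221, none a member. Of 34 tested between old AL and young AL rats 26 were higher (56.6% of all entries were), and the median log2 fold change was 0.34 against 0.06 for all entries. The abundant entries miR-125b-5p, miR-125a-5p and miR-181a-5p stood at −0.24, 0.02 and −0.28. The sum of the list was 3088 ± 649 (young AL), 2797 ± 436 (old AL) and 2795 ± 489 CPM (old CR) (SD, n = 6 each). An unadjusted edgeR p under 0.05 was found for 9 of 34, against 23.4% of all entries. edgeR called 1 (3.28% of all entries), miR-212-3p, a CREB-responsive miRNA processed with miR-132, whose log2 fold change was 1.94 (SE 0.419, adjusted p = 0.0347) at a mean of only 0.202 CPM. DESeq2 called 3, miR-212-3p, miR-212-5p and miR-29b-3p, against 12.2% of all entries. Without replicate 8 the list had 23 of 33 higher, a median of 0.23 and the same call. In old CR against young AL rats 26 of 34 were higher (55.8% of all entries) with a median of 0.30. An unadjusted edgeR p under 0.05 was found for 5 of 34, against 25.5% of all entries. edgeR called 2, against 9.32% of all entries: miR-9a-5p at 2.27 (adjusted p = 0.0133) and miR-9a-3p at 2.70 (adjusted p = 0.0173). Both are known as neural miRNAs and stand on the neural list too. DESeq2 called 5, these and miR-212-3p, miR-212-5p and miR-29b-3p, against 16.2% of all entries. Without replicate 18 the list had 24 of 32 higher, a median of 0.19 and the same edgeR calls. In old CR against old AL rats 15 of 34 were higher (50.7% of all entries) and the median was −0.03. edgeR called 0 (0.272% of all entries), with 2 of 34 at an unadjusted p under 0.05 (12.0% of all entries). DESeq2 called 2 (3.97% of all entries) and gave no adjusted p for 7. Without replicates 8 and 18, 20 of 34 were higher and the median was 0.03.

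The leukocyte list was higher in old AL than in young AL rats with replicate 8 included. All 8 entries were higher in old AL (median log2 fold change 0.78), and edgeR called 0 while 2 had an unadjusted p under 0.05. DESeq2 called 0 too, but gave no adjusted p for 3 of the 8, miR-142-3p, miR-142-5p and miR-155-5p, so these could not be called. Without replicate 8, 4 of 8 were higher and the median was −0.07. miR-142-5p then stood at 0.70 (SE 0.209, edgeR adjusted p = 0.0897) and miR-142-3p at −0.58 (SE 0.320, edgeR adjusted p = 0.277). In old CR against young AL rats 7 of 8 were higher (55.8% of all entries were), with a median of 0.48. In old CR against old AL rats 0 of 8 were higher (50.7% of all entries were), with a median of −0.27. edgeR called 0 of 8 in either, against 9.32% and 0.272% of all entries. None had an unadjusted edgeR p under 0.05, against 25.5% and 12.0% of all entries. DESeq2 called 0 of 8 as well, against 16.2% and 3.97%, and gave no adjusted p for 1 and 4 of the 8. Without replicate 18 the first count of higher entries was 5 of 8 (median 0.15). Without replicates 8 and 18 the second was 6 of 8 (median 0.15).

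Among markers of other cells in the muscle the neural and erythroid lists had the medians farthest from 0. For the old AL and young AL rats the erythroid list had a median log2 fold change of 0.55 (3 of 4 higher), the fibroblast list 0.03 (2 of 3), the vascular list 0.03 (4 of 7), the skeletal muscle list 0.12 (7 of 11) and the neural list 0.60 (9 of 13). Of all entries 56.6% were higher. edgeR called 0 entries in each list, against 3.28% of all entries. Unadjusted edgeR p-values under 0.05 were found for 1 of 4 erythroid and 6 of 13 neural entries, against 23.4% of all entries. DESeq2 called 1 erythroid and 1 neural entry, against 12.2% of all entries. The neural entries did not move as one. The most abundant of them, miR-128-3p (571 CPM), stood at −0.56 (SE 0.195, edgeR adjusted p = 0.127). Most of the neural sum was miR-128-3p. That sum was 727 ± 164 (young AL), 511 ± 132 (old AL) and 591 ± 150 CPM (old CR) (SD, n = 6 each). Without replicate 8 the medians were 0.51 (erythroid), 0.06 (fibroblast), −0.06 (vascular), 0.19 (muscle) and 0.64 (neural), with 0 called by edgeR. The fibroblast sum, of interest because miR-21 is abundant in fibroblasts, was 1426 ± 238, 1385 ± 177 and 1570 ± 392 CPM in young AL, old AL and old CR rats (SD, n = 6 each). In replicate 8 it was 1153 CPM, the lowest of the old AL rats. For old CR and young AL rats edgeR called 5 of 13 neural entries, all higher, against 9.32% of all entries. It called 0 of the erythroid, fibroblast, vascular and muscle entries, whose medians were −0.27, 0.19, −0.18 and −0.21. None of the latter had an unadjusted edgeR p under 0.05 (25.5% of all entries) or a DESeq2 call (16.2% of all entries). The neural median was 0.52, while miR-128-3p stood at −0.46 (SE 0.220). Without replicate 18 edgeR called 4 neural entries and the medians were −0.46, 0.20, −0.14 and −0.04, with 0.41 for the neural list. For old CR and old AL rats edgeR called 0 in all 5 lists, against 0.272% of all entries. The medians of the lists were −0.59 (erythroid), 0.21 (fibroblast), −0.01 (vascular), −0.13 (muscle) and 0.47 (neural). Unadjusted edgeR p-values under 0.05 were found for 1 of 4 erythroid and 4 of 13 neural entries, against 12.0% of all entries. DESeq2 called 2 neural entries, against 3.97% of all entries, but gave no adjusted p for 6 of the 13. Without replicates 8 and 18 the medians were −0.64, 0.13, −0.02, −0.20 and 0.90 in the same order, with 0 called. The part of these cells in the members' values was not tested.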

How the data were processed

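Small RNA from gastrocnemius muscle was sequenced by the study with an Illumina instrument, and the authors deposited raw read counts for 763 known and 146 predicted miRNAs in 18 libraries. The submitters' processing notes name cutadapt 1.2.1, Bowtie2 2.4.0 and the build Rnor_6.0. The study's methods name miRDeep2 for detection and featureCount for counting, with reads under 12 nt discarded. No column was left unused (0). Nothing in the labels says more than that the libraries came from separate samples, so the p-values measure the spread between these samples. Replicates differed beyond counting noise (lowest chi-square per degree of freedom 1214).

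Counts as deposited were tested with the quasi-likelihood test of edgeR 4.0.16 (R 4.3.3, TMM factors of 0.639 to 2.14, robust estimation) in the 12 libraries of each pair of groups, over all entries with at least 10 counts there. Benjamini-Hochberg adjustment ran over all entries, and entries were called that reached a 1.5-fold change with an adjusted p no higher than 0.05. Scripts were tested on simulated data. DESeq2 1.42.0, the tool of the study, was an alternative, as were other scalings, filters, a joint fit, known miRNAs alone and each library left out. Intervals use a t distribution with 10 degrees of freedom. Levels are CPM. Log2 ratios (0.5 counts added) were compared by two-sided exact permutation over 924 arrangements. Intervals and the floor of 3 counts cover the stated error only.

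Named entries were the 6 members, entries sharing their seed, lists of markers and inflammation-linked miRNAs, and the 5 entries most correlated with each member averaging at least 1 CPM. Members and lists were chosen with earlier results of these data known. Sequences came from RefSeq (GRCr8), a build other than that of the counts, and were matched by name.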

Additional observations from a re-analysis of the deposited data

Results flagged for a closer look

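In 3 of 18 sets of 6 libraries (6 members in 3 groups) an end value lay farther from its nearest neighbour, as a share of the range, than Dixon's 95% limit for 6 values allows. Chance alone marks about 1 set in 20. Old AL replicate 8 had 550 CPM of miR-146a-5p, and the gap to the next library was 0.812 of the range. The same library had 0.478 CPM of miR-146a-3p, with a gap of 0.631. It also had the highest miR-142 sum of all libraries, whose part in these values was not tested. Young AL replicate 2 had 263 CPM of miR-146a-5p, with a gap of 0.6252 that barely passed the limit. Its library number is 20 and that of young AL replicate 1 is 19, whereas the other libraries run from 3 to 18. What these numbers stand for is not stated. Without young AL replicate 2 the edgeR log2 fold change of miR-146a-5p between old AL and young AL rats was 0.83 (adjusted p = 0.0528), against 0.74 with it.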

How the results depend on the processing

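With its main settings edgeR called no member in any comparison, and the call of miR-146a-5p between old AL and young AL rats depended on the test and its settings. It was called by DESeq2 (log2 fold change 0.75), by the exact permutation test with its unadjusted p (0.71), and by edgeR with the filterByExpr filter (0.70), the single fit over 3 groups (0.74) and known miRNAs alone (0.74). Adjusted p-values over all its alternatives ran from 3.3e-04 (DESeq2 without replicate 8, where the fold was too small for a call) to 0.229 (library totals alone, log2 fold change 0.92). With each library left out in turn it ran from 0.55 to 0.83. The number of old AL libraries that exceeded every young AL library was 5 of 6 with TMM factors, 6 with RLE factors, and 4 with upper-quartile factors or library totals. With library totals the median log2 fold change of all entries was 0.23 between old AL and young AL and −0.27 between old CR and old AL (TMM 0.06 and 0.01). Relative to that median miR-146a-5p stood at 0.69 and −0.40, and miR-21-5p at 0.49 and −0.38. With upper-quartile factors the latter median was −0.10.

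miR-146a-5p and miR-21-5p kept their direction in every comparison under all alternatives run, as did miR-146b-5p in the comparisons with old AL. Changes of sign were found among values that no test called. Between old CR and young AL rats miR-21-3p turned to −0.011 with library totals and −0.21 in the permutation test, and miR-146a-3p to 0.14 without young AL replicates 1 and 2. Between old CR and old AL rats miR-21-3p turned to −0.057 (upper quartile), −0.32 (library totals), −0.35 (permutation), −0.017 (no filter) and −0.029 (known miRNAs), and miR-146b-3p to −0.0085 (library totals). DESeq2 without replicate 8 gave −0.25 for miR-146a-3p between old AL and young AL rats. For old CR against old AL it gave 0.14 for miR-146a-3p and −0.0012 for miR-21-3p. The cause was not tested.

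Leaving out each library in turn gave log2 fold changes between old AL and young AL rats of −0.23 to 0.21 (miR-146a-3p), −0.053 to 0.19 (miR-146b-3p) and −0.17 to 0.39 (miR-21-3p). For old CR against young AL they were −0.52 to 0.0092 (miR-146a-3p), −0.11 to 0.070 (miR-146b-5p) and −0.15 to 0.44 (miR-21-3p). For old CR against old AL they were −0.55 to 0.089 (miR-146a-3p) and −0.34 to 0.35 (miR-21-3p). Differences in log2 ratios ranged, for old AL against young AL, from −0.21 to 0.050 (miR-21-5p to miR-146a-5p), −0.54 to 0.16 (miR-146a-5p to miR-142) and −0.62 to 0.051 (miR-21-5p to miR-142). For old CR against young AL they ranged from −0.16 to 0.68 (miR-21-5p to miR-21-3p), −0.26 to 0.099 (miR-21-5p to miR-146a-5p), −0.35 to 0.39 (miR-146a-5p to miR-142), −0.58 to 0.18 (miR-146b-5p to miR-142) and −0.28 to 0.26 (miR-21-5p to miR-142). For old CR against old AL they ranged from −0.63 to 0.21 (miR-21-5p to miR-21-3p), −0.15 to 0.20 (miR-21-5p to miR-146a-5p), −0.18 to 0.75 (miR-146a-5p to miR-142), −0.17 to 0.98 (miR-146b-5p to miR-142) and −0.20 to 0.72 (miR-21-5p to miR-142). The signs of the ratios to miR-142 changed without replicate 8 or replicate 18, except for miR-146b-5p between old AL and young AL rats and, for miR-146a-5p between old CR and young AL rats, also without other libraries.

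Entries called in all numbered 24, 68 and 2 in edgeR (old AL against young AL, old CR against young AL, old CR against old AL) and 84, 109 and 19 in DESeq2. Over the alternatives they ran from 0 to 94, from 45 to 109 and from 0 to 36. Of the calls between old CR and young AL rats 44.1% were higher with TMM factors and 34.04% with library totals. No paired analysis was possible because the replicate numbers run from 1 to 18 and no number is shared between groups. The depth limits the 3p strands most, with 0 to 9 counts of miR-21-3p a library. The alternatives that left out replicates 8 and 18 together, or used DESeq2 without them, and those on the marker lists were chosen after seeing the data.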
